A study of Mus musculus with 9 samples.

Results

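Smooth muscle of the uterus was followed through 6 of the 55228 features of the deposited count files. Members were taken by name, with earlier results of these data known. They were 4 smooth muscle genes, Myh11, Tagln, Smtn and Lmod1, and the 2 non-coding features Gm48529 and Gm11946, whose exons lie across exons of Tagln and Smtn on the other strand. All 6 were found, and 5 of them passed the filter on low counts that left 3722 features for testing; Smtn did not.

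The myometrium, the muscular wall of the uterus, contracts through myosin that pulls on actin filaments once calcium has entered the cell. Myh11 is the heavy chain of smooth muscle myosin. Tagln (transgelin) and Smtn (smoothelin) bind actin filaments and mark contractile smooth muscle cells, and Lmod1 (leiomodin) starts the growth of actin filaments in them. An antisense feature is an annotated transcript that runs across a gene in the opposite direction.

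The study asked how injured mouse endometrium is restored by transplanted cells. RNA of uterus was sequenced from 3 sham-operated mice, 3 injured mice and 3 mice that received CRCs, all of genotype WT, C57BL females of 8 weeks, on day 7. Uteri of the injury group were damaged mechanically, by 10 passes of a turning 27 gauge needle, before 50 μL of PBS was given. The CRC group had the same damage and then 1000000 CRCs in 50 μL. CRCs are conditionally reprogrammed cells, endometrial epithelial cells grown beside irradiated 3T3 feeder cells. Sham mice are labelled as sham operated.

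Features held between 280886 and 327883 counts per library, 0.776% to 0.898% of the records. Records lying on no feature made up 87.3% to 91.6% of a library. Values below are counts, or CPM, the count per 1000000 after TMM scaling of the library sizes. In CPM, 1 count was worth 3.05 to 3.70. TMM factors were 0.850 to 0.948 in sham, 0.991 to 1.01 in injury and 1.12 to 1.14 in CRC. Records without a unique alignment made up 2.95% to 3.1% in CRC and 3.48% to 3.86% in the other libraries. What part these differences have in the results was not tested. The sham libraries lay farther from each other (mean distance 52.1 over log2 CPM of the features tested) than from the injury libraries (49.0), and those labelled CRC lay 62.6 from sham. Sham replicate 1 stood apart from sham replicates 2 and 3 (chi-square over degrees of freedom 11.9 and 9.99, against 4.12 between the latter and at most 3.41 within the other groups). Groups are named as in the labels, and whether the labels of injury and CRC were exchanged was not tested. A feature was called, and is said to rise or fall, where its adjusted p over the 3722 features tested was under 0.05, and calls that turn on a single library are named beside the result.

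How strand was set when reads were counted is not given in the sources used here, so each count is given as the count on that feature, and which strand the RNA came from was not tested. Records lying on more than 1 feature made up 0.00493% to 0.0773% of a library. Such records numbered 28622 and 24851 in sham replicates 2 and 3 and 1751 to 6470 in the other libraries, among them 2571 in sham replicate 1, and where in the genome they lie is not given.

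The labelled tissue was checked against markers of the cell types of the uterus. Of 9 defining smooth muscle genes 0 were at 0 in every library, and Myh11 was the most abundant with 459 counts over the 9 libraries. Their own features summed to 405, 585 and 511 CPM in the sham libraries, to 298, 338 and 323 CPM in injury and to 249.7, 237 and 314 CPM in CRC. Acta2, the actin of smooth muscle, held 39 counts over all libraries, Actg2 1, Cnn1 52, Des 64 and Myl9 25. The 5 features opposite these 9 genes summed to between 27780 and 71462 CPM, nearly all of it Gm48529. Sham was thus above injury and CRC in every library on both measures, which Myh11 and Gm48529 carry. Without the members, a choice made after seeing the data, the 5 remaining markers summed to 55.1, 133 and 93.0 CPM in sham, to 41.6, 42.2 and 77.2 CPM in injury and to 67.0, 64.5 and 39.7 CPM in CRC, and the groups overlapped. Cnn1 had 1, 3 and 6 counts in the sham libraries, 4, 4 and 11 in those of injury and 8, 12 and 3 in those of CRC.

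Markers of other cell types were read in the same way. The lists differ in their genes and exonic lengths, so sums are compared between libraries, not between lists. Of 9 epithelial markers Cdh1 and Foxa2 were at 0, Muc1 was the most abundant with 27 counts, and the list summed to between 6.94 and 42.2 CPM. Of 9 striated muscle markers 5 were at 0 and the most abundant, Ckm, had 5 counts; the list held 3, 5 and 5 counts in the sham libraries, 0 in each of injury and 0, 1 and 1 in those of CRC. Of 7 leukocyte markers Ptprc, Adgre1, Lyz2 and Cd3e were at 0, and Csf1r held 496 counts. The leukocyte list summed to 214, 233 and 282 CPM in sham mice, to 219, 172 and 218 CPM after injury and to 143, 111 and 107 CPM with CRCs. Of 9 stromal markers none was at 0, Hoxa11 had the most counts with 147, and the list summed to 149, 226 and 329 CPM in sham mice, to 128, 162 and 130 CPM after injury and to 122, 73.7 and 116 CPM with CRCs. Of 6 pericyte markers Pdgfrb and Abcc9 were at 0, Notch3 led with 73 counts, and the list summed to between 14.3 and 60.9 CPM. Of 6 endothelial markers none was at 0, Emcn led with 48 counts, and the list summed to between 11.1 and 61.6 CPM. Of 5 mesothelial markers Upk3b and Upk1b were at 0, and Lrrn4 led with 18 counts. The 4 features opposite stromal genes, led by Hoxa11os with 6450 counts, summed to 2222, 3568 and 2582 CPM in sham, to 1881, 1923 and 2179 CPM in injury and to 2839, 2311 and 2843 CPM in CRC, and of the 2 tested 0 were called lower in CRC than in sham. On own features 2 of 3 tested stromal markers and 1 of 1 tested leukocyte marker, Csf1r, were called lower, beside 12.0% of all features tested. On own features the sums of the stromal, leukocyte and striated muscle lists were thus also lower in CRC than in sham in every library. Nearly all counts of the leukocyte list lay on Csf1r, and the striated muscle list held at most 5 counts per library. The opposite features of stromal genes overlapped between CRC and sham. The part of these lists in the results on smooth muscle was not tested.

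Tagln (ENSMUSG00000032085.5) is a minus-strand gene of chromosome 9 (GRCm38, from 45929619 to 45936058) with 5 exonic blocks in GENCODE M21. Gm48529 (ENSMUSG00000111521.1), annotated as antisense, lies within it on the plus strand from 45930112 to 45933738. The 2 features share 1241 exonic bases in 3 stretches of 404, 645 and 192 bases, which make up 62.4% of the exonic bases of Tagln and 48.9% of those of Gm48529. The protein-coding gene Pcsk7, a proprotein convertase on the plus strand, ends inside the last exon of Tagln and shares 108 bases with it.

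Smtn (ENSMUSG00000020439.17) is a minus-strand gene of chromosome 11 (from 3517523 to 3540612). Gm11946 (ENSMUSG00000087291.1), a processed transcript, lies on the plus strand inside it, from 3530157 to 3536856, and shares 714 exonic bases with Smtn in 6 stretches of 39 to 321 bases, 16.3% of the exonic bases of Smtn. Gm11947, which also lies opposite Smtn, had 0 counts in every library. All of its 273 exonic bases lie in exons of Gm11946 on the same strand. Reads there lie on more than 1 feature, so this 0 is no measure of its level. Myh11 (ENSMUSG00000018830.10), on the minus strand of chromosome 16 from 14194535 to 14291372, and Lmod1 (ENSMUSG00000048096.7), on the plus strand of chromosome 1 from 135324807 to 135368065, share no exonic base with a gene on the other strand.

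**Figure D1:**
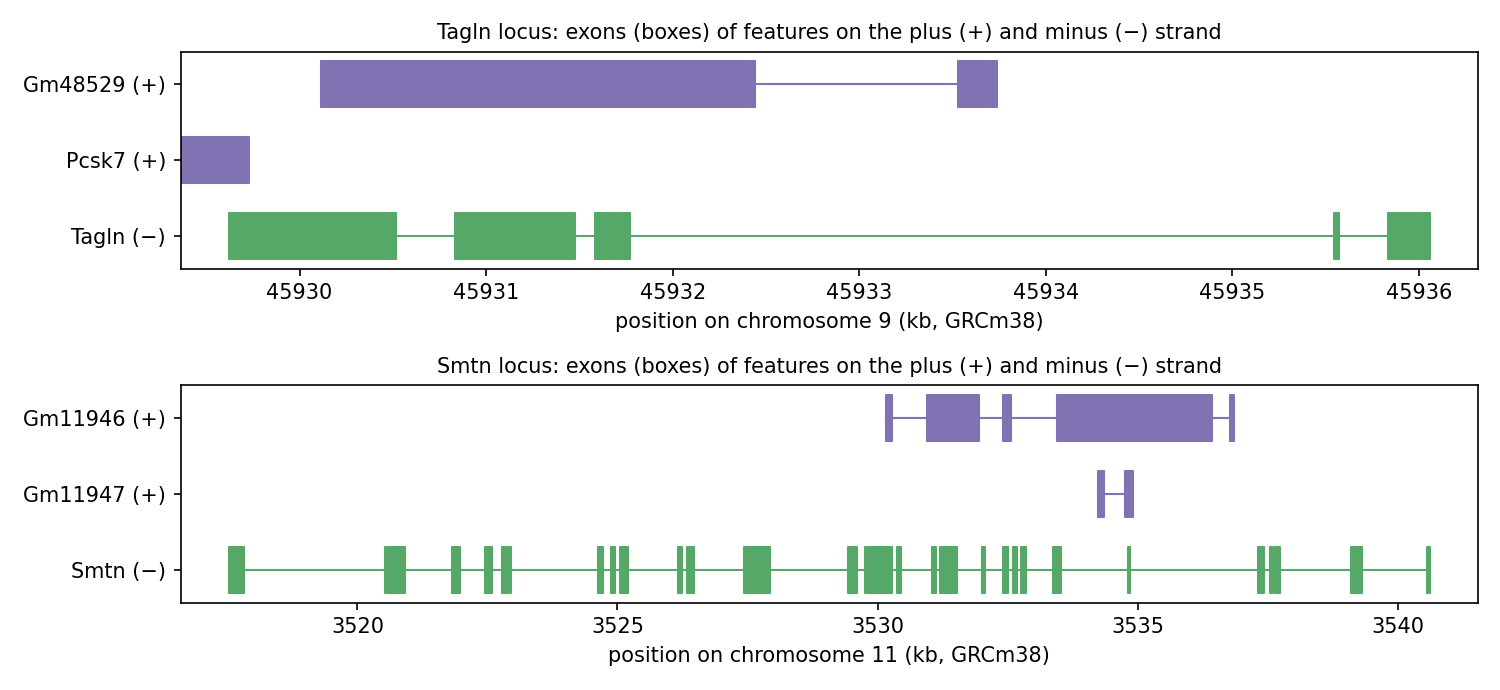
Map of the Tagln locus (top) and the Smtn locus (bottom) to scale, with position in kb of GRCm38 on the horizontal axis, exons as boxes and introns as lines. Gm48529 lies across 3 of the 5 exonic blocks of Tagln, and Gm11946 lies inside Smtn; of Pcsk7 its end is drawn.

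RefSeq lists 5 starts for Gm11946, and the 250 bases upstream of each hold coding bases of Smtn, 169, 250, 8, 132 and 96 of them. The first 2, with the most, are shown: capitals mark bases inside exons of Smtn, read here on the plus strand of GRCm38.p6. Upstream of the first start, at chr11:3530114-3530363, 169 of 250 bases lie in coding sequence of Smtn, and upstream of the second, at chr11:3531268-3531517, 250 of 250 do.
Gm11946 first start: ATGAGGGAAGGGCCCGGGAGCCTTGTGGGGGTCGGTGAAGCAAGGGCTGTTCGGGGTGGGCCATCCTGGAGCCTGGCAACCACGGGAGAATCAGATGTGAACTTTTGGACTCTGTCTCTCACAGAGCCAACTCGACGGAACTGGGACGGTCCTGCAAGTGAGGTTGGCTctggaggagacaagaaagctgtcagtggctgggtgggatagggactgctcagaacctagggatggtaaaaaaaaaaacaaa
Gm11946 second start: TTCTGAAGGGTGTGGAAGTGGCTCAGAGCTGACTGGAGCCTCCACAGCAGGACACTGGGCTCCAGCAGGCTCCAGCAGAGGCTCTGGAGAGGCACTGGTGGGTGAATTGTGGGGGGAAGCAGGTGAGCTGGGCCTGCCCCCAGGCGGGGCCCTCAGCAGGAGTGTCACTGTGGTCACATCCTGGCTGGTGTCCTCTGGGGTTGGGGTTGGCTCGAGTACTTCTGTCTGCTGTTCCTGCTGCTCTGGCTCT

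Levels of the members can be set side by side only per length. Per kb of exonic sequence, mean CPM in sham was 26415 ± 1024 (SD, n = 3) for Gm48529, 355 ± 35.4 for Gm11946, 40.8 ± 7.90 for Tagln, 35.1 ± 5.41 for Myh11, 11.5 ± 1.58 for Lmod1 and 3.12 ± 1.98 for Smtn. Tagln and Myh11 differed by less than their spread, and every other neighbour in this order lay apart by more than it. In CRC the levels per kb were 10874 ± 349 for Gm48529, 194 ± 13.3 for Gm11946, 18.5 ± 5.35 for Tagln, 14.7 ± 7.51 for Myh11, 12.6 ± 3.14 for Lmod1 and 2.56 ± 1.62 for Smtn. There Tagln and Myh11, and Myh11 and Lmod1, lay within their spread of each other.

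Gm48529, opposite Tagln, held 130075 counts, the most of any feature. Its share of all feature counts was 6.63%, 5.60% and 5.56% in the sham libraries, 5.31%, 5.30% and 5.34% in injury and 3.25%, 3.06% and 3.03% in CRC. In CPM it measured 69964, 65808 and 65190 in sham mice, 53541, 52385 and 52970 after injury and 28568, 27284 and 26874 with CRCs. The 3 groups did not overlap, with sham highest, injury between and CRC lowest, and the libraries of a group lay within a coefficient of variation of 3.88%, 1.09% and 3.21% of each other. Against sham, Gm48529 fell in CRC, the log2 fold change being -1.28 (standard error 0.10, adjusted p = 1.76e-10 by Benjamini-Hochberg after the quasi-likelihood F-test of edgeR). Against injury the log2 fold change in CRC was -0.94 (standard error 0.10, edgeR adjusted p = 3.69e-08). Between injury and sham the log2 fold change of -0.34 (standard error 0.10) did not pass (edgeR adjusted p = 0.148, DESeq2 adjusted p = 0.00996). Which cells the reads on Gm48529 came from was not tested. In bulk tissue, a change in cell numbers and one in RNA per cell cannot be told apart.

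Tagln itself held 20, 26 and 23 counts in sham mice, 18, 21 and 15 after injury and 14, 14 and 8 with CRCs. Sham and injury overlapped, and every CRC library was below every library of the other groups. CRC against sham gave a log2 fold change of -1.13 (standard error 0.42), close to that of Gm48529 but with an error 4 times as large at this depth, and it did not pass the threshold of 0.05 (edgeR adjusted p = 0.0528). Without sham replicate 1 it did (edgeR adjusted p = 0.0365). Against injury it was -0.77 (standard error 0.42, edgeR adjusted p = 0.267), and between injury and sham -0.36 (standard error 0.40, edgeR adjusted p = 0.771).

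Reads on the Tagln feature were a small part of the locus. They made up 0.0926%, 0.146% and 0.126% of the counts on Tagln and Gm48529 together in sham mice, 0.117%, 0.141% and 0.0993% after injury and 0.149%, 0.157% and 0.0907% with CRCs. The lowest of these shares had a 95% Wilson interval of 0.0460% to 0.179% and the highest one of 0.0938% to 0.264%, so that they overlap at this depth. Intervals and floors from counts cover counting error alone. On the log2 scale the ratio of Gm48529 to Tagln was 9.68 ± 0.33 in sham, 9.69 ± 0.25 in injury and 9.54 ± 0.42 in CRC (SD, n = 3). The difference of -0.14 between CRC and sham was within the spread between libraries (two-sided exact permutation test, p = 0.5, where 3 libraries against 3 allow no p under 0.1), and its sign turned without sham replicate 1 (0.043) or CRC replicate 2 (0.0013).

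Pcsk7, on the same strand as Gm48529 and named here after its values were seen, held 21, 25 and 26 counts in sham mice, 30, 27 and 25 after injury and 15, 7 and 11 with CRCs. The sham and injury libraries overlapped, and CRC was below both. It fell in CRC, with a log2 fold change of -1.32 against sham (standard error 0.40, edgeR adjusted p = 0.0179) and -1.50 against injury (standard error 0.40, edgeR adjusted p = 0.00933). The call against sham was lost without sham replicate 3, CRC replicate 2 or CRC replicate 3 (edgeR adjusted p = 0.0546, 0.110 and 0.0598), and that against injury without CRC replicate 2 (edgeR adjusted p = 0.0706).

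Gm11946, opposite Smtn, measured 1430, 1484 and 1720 CPM in sham mice, 1197, 851 and 1358 after injury and 877, 774 and 872 with CRCs, from 242 to 481 counts. Every injury and CRC library was below every sham library, while injury replicate 2 lay among the CRC libraries. Gm11946 fell in CRC against sham, with a log2 fold change of -0.88 (standard error 0.16, edgeR adjusted p = 0.000207). Against injury the log2 fold change of -0.43 (standard error 0.16) did not pass (edgeR adjusted p = 0.0859); it passed without sham replicate 1, sham replicate 2 or injury replicate 2 (edgeR adjusted p = 0.0343, 0.0310 and 0.0130). Between injury and sham it was -0.44 (standard error 0.16, edgeR adjusted p = 0.225).

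Smtn held 6, 1 and 5 counts in sham mice, 0, 4 and 7 after injury and 1, 5 and 5 with CRCs. The groups overlapped fully, and a difference on the Smtn feature was not detectable at this depth. A count of 0, as in injury replicate 1, allows up to 3 counts or 10.4 CPM. Smtn made up 0% to 1.95% of the counts on the pair, and for the library at 0 the Wilson interval reached 1.10%. The log2 ratio of Gm11946 to Smtn was 6.87 ± 1.05 in sham, 6.96 ± 2.14 in injury and 6.27 ± 1.14 in CRC (SD, n = 3), and the difference of -0.60 between CRC and sham was within that spread (two-sided exact permutation test, p = 0.5) and turned sign without sham replicate 2 (0.0015).

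Myh11 has no exon overlap on the other strand and was counted on its own feature. It held 68, 81 and 78 counts in sham mice, 42, 45 and 35 after injury and 33, 20 and 57 with CRCs, which is 221, 299.8 and 279 CPM, then 146, 158 and 123 CPM, then 101, 61.5 and 174 CPM. All injury and CRC libraries were below all sham libraries, and CRC, with a coefficient of variation of 51.0%, spread across the injury libraries. Myh11 fell in CRC against sham, with a log2 fold change of -1.25 (standard error 0.30, edgeR adjusted p = 0.00299). Between injury and sham the log2 fold change was -0.90 (standard error 0.30, edgeR adjusted p = 0.176; 0.0486 without sham replicate 1). Between CRC and injury it was -0.34 (standard error 0.31, edgeR adjusted p = 0.546), and it moved to -0.83 without CRC replicate 3 and to -0.056 without CRC replicate 2.

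Lmod1 held 14, 14 and 11 counts in sham mice, 14, 14 and 13 after injury and 12, 17 and 20 with CRCs. The groups overlapped, and CRC held both the lowest and the highest library in CPM, at 36.5 and 61.0. Its log2 fold changes were 0.07 ± 0.45 in injury against sham, 0.13 ± 0.44 in CRC against sham and 0.06 ± 0.44 in CRC against injury (standard errors; edgeR adjusted p = 0.973, 0.872 and 0.954). At 11 to 20 counts per library these errors leave room for changes in either direction.

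**Figure D2:**
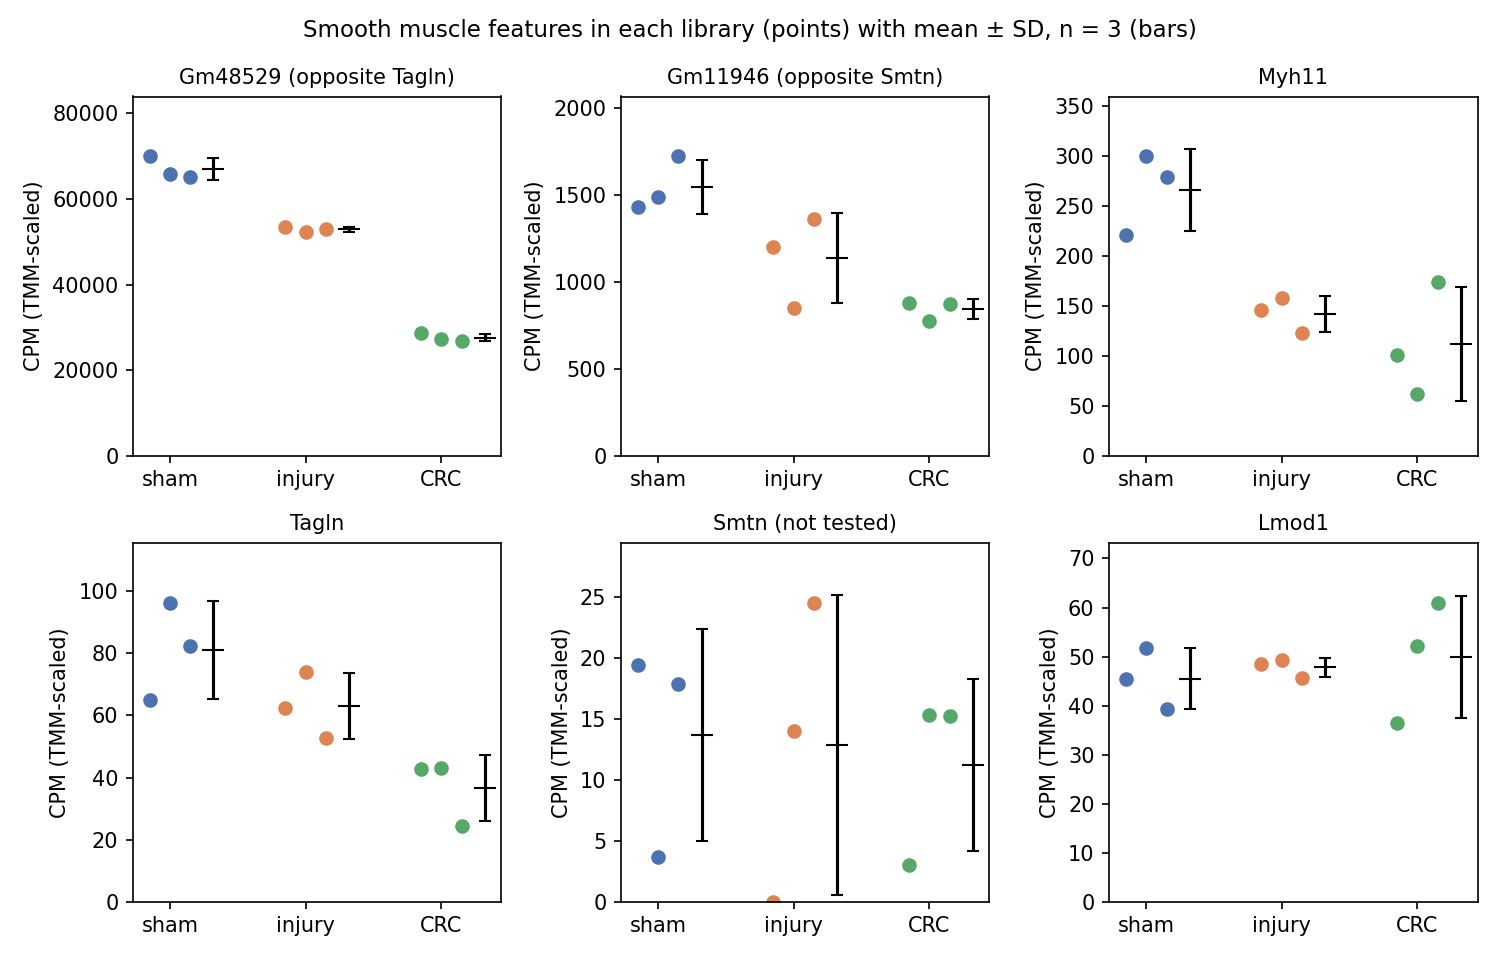
TMM-scaled CPM (vertical axes, each from 0) of the 6 members in the 3 sham, 3 injury and 3 CRC libraries as points, with the group mean ± SD beside them. Gm48529 stands in 3 separate groups, sham is highest for Gm11946 and Myh11, and Smtn and Lmod1 overlap in all groups.

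Taken by comparison, 3 of the 5 tested members, Myh11, Gm48529 and Gm11946, were called between CRC and sham, all lower in CRC. Of all features tested 20.0% were called there and 12.0% were called as lower. Members and lists were chosen with earlier results known, so their counts beside shares of all features are descriptions. By order alone, 4 of 5 had every CRC library below every sham library, beside 17.8% of all features. Between CRC and injury 1 of 5, Gm48529, was called, beside 12.9% of all features (7.82% lower and 5.10% higher), and 2 of 5, Gm48529 and Tagln, were lower without overlap, beside 17.0%. Between injury and sham edgeR called 0 of 5, beside 0.430% of all features (16 features, and 154 or 3.72% without sham replicate 1). In this comparison 3 of 5 had an unadjusted p under 0.05, beside 12.6% of all features. DESeq2 called 1, Gm48529, among 17 of the 2762 features with an adjusted p there (0.615%). There 3 of 5, Myh11, Gm48529 and Gm11946, were lower in injury without overlap, beside 7.82% of all features. The comparisons share libraries in pairs, and whether the change after injury differs from that in CRC is the comparison of CRC with injury itself.

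The wider smooth muscle programme was read from lists of 77 genes found in the files, grouped by role. Of these, 7 had 0 counts in every library, 31 had 1 to 9 counts in all and 39 had 10 or more. On their own features 19 genes could be tested, and a further 19 features with exons opposite a listed gene could be tested. Of 26 loci with a feature on each strand, 18 held more counts on the opposite feature and 8 on the gene itself. Over all features matched to the annotation, 16.6% had an exon overlap on the other strand, and these held 79.7% of the matched counts. Counts were 4461 on E130310I04Rik against 33 on Mylk, the kinase that switches on smooth muscle myosin, and 3230 on Gm43361 against 212 on Atp2a2, the calcium pump of the sarcoplasmic reticulum.

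Of the 19 own features 5 were called lower and 2 higher in CRC than in sham, beside 12.0% lower and 8.03% higher over all features, and their median log2 fold change was -0.18 against 0.03 over all features. Of the 19 opposite features 9 were called lower and 0 higher, with a median log2 fold change of -0.86. The 7 own calls became 5 without CRC replicate 1 or CRC replicate 2. The 9 opposite calls became 8 without CRC replicate 2 or CRC replicate 3 and 10 without sham replicate 1. Calls over all features, 746 in number, became 538, 505 and 540 without CRC replicates 1, 2 and 3 and 894 without sham replicate 1. Gained as lower were Gm43361 without sham replicate 1 (edgeR adjusted p = 0.00551) and Rrp8 (opposite Ilk) without sham replicate 3 (edgeR adjusted p = 0.00604). Scaled to library sizes that also hold the reads lying outside features, which moved the median of all features by 0.29, own features split into 3 lower and 3 higher, opposite features into 8 lower and 0 higher, and all features into 281 lower and 643 higher, where TMM gave 447 and 299. Between CRC and injury 2 of the 19 own features were called lower and 2 higher, beside 7.82% lower and 5.10% higher over all features. Of the 19 opposite features 7 were called lower and 0 higher. Medians of own and opposite features were -0.32 and -0.43, against 0.01 over all features. The 7 opposite calls became 10 without sham replicate 1, 9 without sham replicate 2 and 6 without CRC replicate 2. Calls over all features, 481 in number, became 595, 660 and 338 there. Among the opposite features gained as lower were Gm26586 and Gm43361 (opposite Atp2a2). E030013I19Rik (opposite Itga8) was gained as higher without injury replicate 1. Without injury replicate 1 or CRC replicate 2, where calls over all features became 330 and 338, the 4 own calls became 2. Of them Cald1, with a log2 fold change of -0.76 (edgeR adjusted p = 0.0341), was lost without any 1 of injury replicates 1, 2 and 3 and CRC replicates 1 and 2 (edgeR adjusted p = 0.0626, 0.0888, 0.0955, 0.207 and 0.181). There the other scaling moved the median of all features by 0.20, and gave 1 lower and 2 higher own features, 7 lower and 2 higher opposite features, and 189 lower and 334 higher of all features, where TMM gave 291 and 190. Between injury and sham edgeR called 0 features on either side. In this comparison 3 own and 6 opposite features had an unadjusted p under 0.05, beside 12.6% of all features. DESeq2 called 0 and 1, beside 0.615% of the features with an adjusted p there. Without sham replicate 1 edgeR called 2 own features there, Myh11 and Kcnmb1. Medians there were -0.19 and -0.35, against -0.01 over all features.

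By role, and beside the 12.0% of all features called lower and 8.03% called higher, 1 of 5 own features of actin-binding and thin filament genes and 4 of 4 features opposite such genes fell in CRC against sham. These 4 were Gm48529, Gm11946, Gm26586 and Pcsk7, whose call turns on single libraries as given above. The own feature was Cald1, whose call also turns on single libraries, as given below. Of myosin and its regulators 1 of 3 own and 1 of 4 opposite features fell. Of the genes of dense bodies, adhesion and intermediate filaments 1 of 5 own and 3 of 6 opposite features fell. The genes of excitation, calcium and signalling were divided, with 2 of 6 own features lower and 2 higher, and 1 of 4 opposite features lower. Of the 2 lower own features, Cacna1c has a call that turns on single libraries, as given below. Of the transcription factors of the programme 0 own features could be tested; Srf held 27 counts in all and Myocd 8.

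Oxtr, the oxytocin receptor through which the myometrium is driven to contract, had no exon overlap and held 26, 37 and 25 counts in sham mice, 29, 22 and 22 after injury and 5, 4 and 8 with CRCs. Sham and injury overlapped and CRC stood far below them. Oxtr fell in CRC, with a log2 fold change of -2.55 against sham (standard error 0.44, edgeR adjusted p = 7.90e-05) and -2.27 against injury (standard error 0.45, edgeR adjusted p = 0.000638).

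Kcnmb1, the accessory subunit of the large-conductance potassium channel that relaxes smooth muscle, moved the other way. It held 62, 40 and 31 counts in sham mice, 54, 83 and 75 after injury and 145, 169 and 140 with CRCs, without an exon overlap on the other strand. CRC was above all other libraries, and sham replicate 1 lay above injury replicate 1 in CPM. Kcnmb1 rose in CRC by a log2 fold change of 1.58 against sham (standard error 0.24, edgeR adjusted p = 1.20e-05) and 0.90 against injury (standard error 0.23, edgeR adjusted p = 0.00660). The call against injury was lost without injury replicate 1 or CRC replicate 2 (edgeR adjusted p = 0.0781 and 0.0590), and without sham replicate 1 Kcnmb1 was also called higher in injury than in sham (edgeR adjusted p = 0.0360).

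Pln (phospholamban), which holds back the calcium pump of the sarcoplasmic reticulum, had a tested feature on each strand. Its own feature held 89, 59 and 95 counts in sham mice, 70, 83 and 68 after injury and 172, 227 and 192 with CRCs. Gm47644, which shares 1644 exonic bases with it on the minus strand of chromosome 10 from 53337753 to 53345085 and is annotated as sense intronic, held 176, 106 and 134 in sham mice, 140, 127 and 111 after injury and 70, 72 and 70 with CRCs. CRC stood apart from the other libraries on both features, above them on Pln and below them on Gm47644. Pln rose in CRC against sham by a log2 fold change of 1.09 (standard error 0.20, edgeR adjusted p = 0.000193) while Gm47644 fell, with -1.16 (standard error 0.20, edgeR adjusted p = 8.52e-05). Against injury the values were 1.22 and -1.03 (standard errors 0.20 and 0.20, edgeR adjusted p = 7.69e-05 and 0.000638). In CRC against sham, 9 loci had a tested feature on each strand. Log2 fold changes had the same sign for 5 of them, among them Tagln and Gm48529. They had opposite signs for 4, among them Pln and Gm47644.

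Gm37401 shares 324 of its 347 exonic bases with Rhoa, the GTPase that makes smooth muscle more sensitive to calcium. Rhoa itself had 0 counts in every library, which allows up to 9.14 to 11.1 CPM on that feature by counting error alone. With the strand setting not given, this 0 is no measure of the level of Rhoa RNA. Gm37401 held 562, 420 and 499 counts in sham mice, 399, 320 and 361 after injury and 156, 205 and 179 with CRCs. Its 3 groups did not overlap, in the order sham, injury, CRC. It fell in CRC, with a log2 fold change of -1.64 against sham (standard error 0.16, edgeR adjusted p = 5.86e-09) and -1.19 against injury (standard error 0.16, edgeR adjusted p = 2.37e-06). Ap3m1 and Taf10, protein-coding genes opposite the adhesion genes Vcl and Ilk, fell in CRC against sham, with log2 fold changes of -0.92 and -0.98 (edgeR adjusted p = 1.39e-06 and 4.07e-07).

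The other called features of the lists are named after their values were seen. On own features these were Cald1 (caldesmon, which holds actin and myosin apart), Actn1 (the actin cross-linker alpha-actinin) and Cacna1c (the pore of the L-type calcium channel), with log2 fold changes of -0.93, -1.51 and -1.55 in CRC against sham (edgeR adjusted p = 0.00597, 0.00796 and 0.0353). On opposite features they were Gm26586 (opposite Tpm4, a tropomyosin) and Gm47766 (opposite Actn1), with -1.24 and -0.86 (edgeR adjusted p = 0.000427 and 0.00150). CRC and sham overlapped for Cald1, through CRC replicate 3 and sham replicate 1. The call of Cald1 was lost without CRC replicate 1 or CRC replicate 2 (edgeR adjusted p = 0.0587 and 0.0594), and that of Cacna1c without sham replicate 1, CRC replicate 1 or CRC replicate 2 (edgeR adjusted p = 0.151, 0.149 and 0.124).

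**Figure D3:**
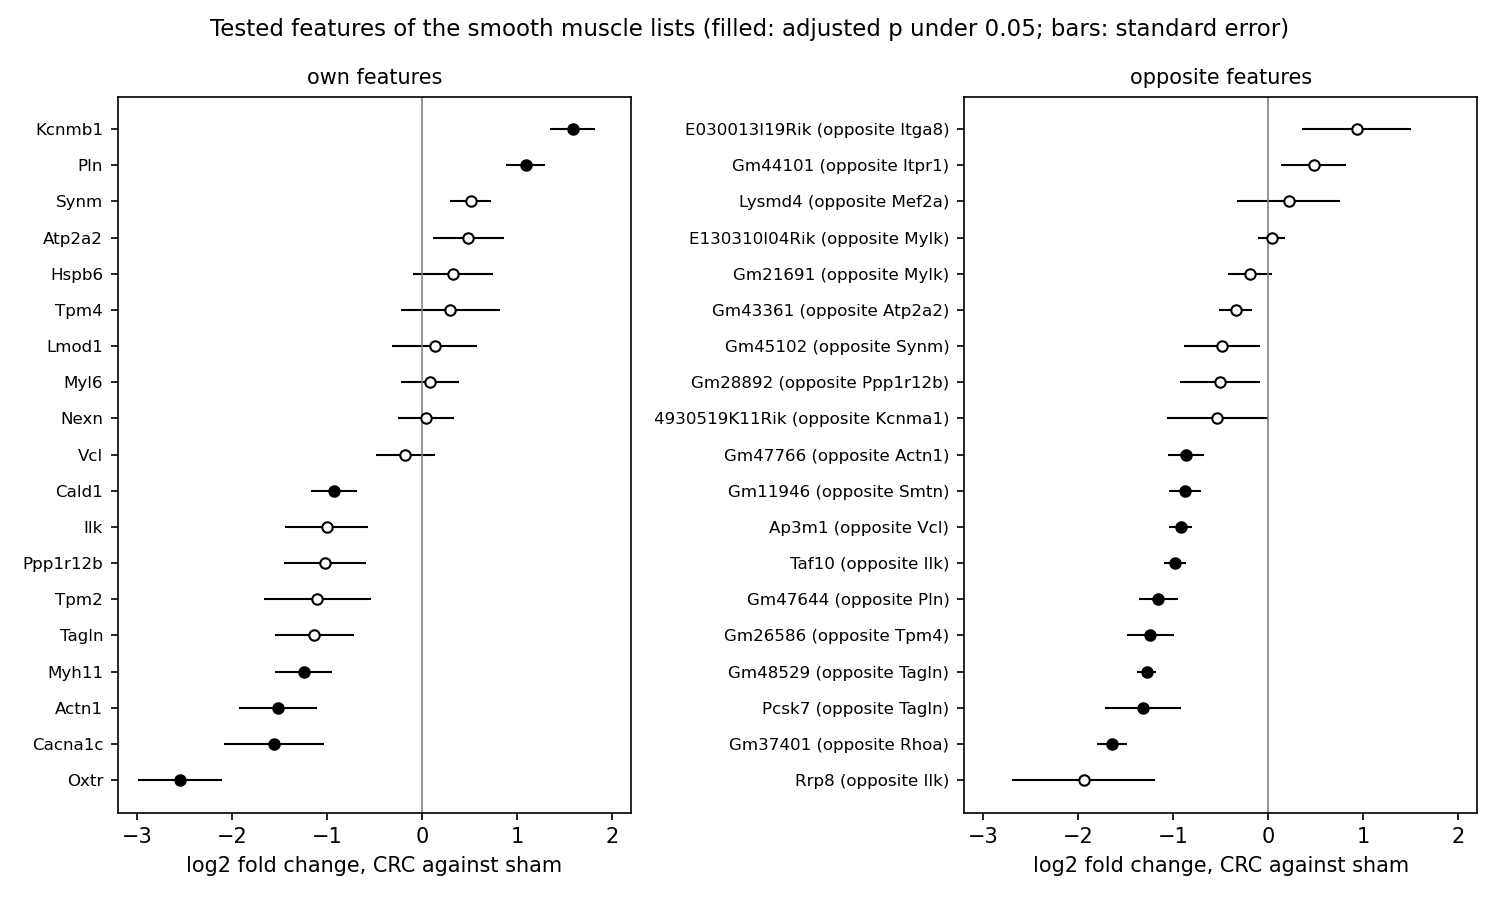
Log2 fold change in CRC against sham (horizontal axes) of the 19 own and 19 opposite features of the smooth muscle lists that were tested, with standard errors as bars and filled points where the adjusted p was under 0.05. Own features lie on both sides of 0, from -2.55 for Oxtr to 1.58 for Kcnmb1, and the 9 called opposite features lie below 0.

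Smooth muscle genes are known for the CArG box, the motif bound by serum response factor (Srf), which is searched here in the 250 bases before each start in RefSeq (GRCm38.p6). Only exact matches in these bases were counted, so a box with a mismatch or elsewhere would be missed. The motif reads the same on both strands. It was present for 439 of 27025 genes with such a sequence (1.62%) and for 9 of the 63 listed smooth muscle genes that have one (14.3%). Of the members Smtn, Lmod1 and Gm11946 have a sequence there and 0 of 3 held the motif. Myh11, Tagln and Gm48529 were not matched. Srf holds it in 2 places and the others in 1. Windows of 30 bases around the motif, the first for Srf, are shown for 4 of the 9 genes, Srf itself, a myosin light chain with enough counts to be tested (Myl6), a defining marker (Myl9) and a calponin (Cnn2), with the motif in capitals; on own features Myl6 had a log2 fold change of 0.08 in CRC against sham (standard error 0.30, edgeR adjusted p = 0.886). A match is a description of the sequence.
Srf (chr17:46556225-46556254, minus strand): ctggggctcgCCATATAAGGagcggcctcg
Myl6 (chr10:128493040-128493069, minus strand): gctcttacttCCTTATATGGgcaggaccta
Myl9 (chr2:156775293-156775322, plus strand): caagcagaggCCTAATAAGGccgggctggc
Cnn2 (chr10:79988534-79988563, plus strand): cgcttccacgCCTTATAAGGacatttgctc

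For each tested member the 3 features with the most similar pattern were taken, by Pearson's r of log2 CPM over the 9 libraries. Candidates were 491 of the 493 features averaging 100 counts or more. The points share the scaling and the differences between groups, so that r is a description. Gm48529 was most like Gm48342 (r = 0.991), Gm17638 (0.987) and Gm12992 (0.987), which lie opposite Hmgcs1, Eif3d and Srsf4. Gm11946 was most like Slc5a2 (0.953), Gm20412 (0.946) and Dalrd3 (0.946), which also have an exon overlap on the other strand. Such an overlap was held by 3 of 3 features for Tagln and by 2 of 3 for Myh11 and for Lmod1. It was held by 83.6% of the 493 features of this depth. Tagln was most like Gm44317 (0.939), Serinc4 (0.939) and Cyfip1 (0.937). Myh11 was most like Plppr3 (0.895), 1700034J05Rik (0.868) and Gm26566 (0.867). For Lmod1 the values were lower, with Snapc3 (0.748), Gm16153 (0.709) and Gm3896 (0.677).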

How the data were processed

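Total RNA of uterus was depleted of ribosomal RNA and sequenced in 9 libraries, 1 per mouse. The authors deposited whole-number counts per feature, not normalized, after alignment with HISAT2 2.1.0; their processing notes also name StringTie 2.1.1. The rows for uncounted reads are those of htseq-count; its strand setting is not given in the sources used here. Rows for uncounted records were left out of library sizes. Positions, exons and overlaps came from GENCODE M21 (GRCm38), which matched 53569 of 55228 feature names (Mrtfa and Mrtfb also searched as Mkl1 and Mkl2); the paper names another release of that annotation, which was not used here. Promoter sequences came from RefSeq.

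Counts were filtered with filterByExpr, scaled by TMM and fitted for all 9 libraries with edgeR 4.0.16 (robust quasi-likelihood, group alone) in R 4.3.3; DESeq2 1.42.0 was an alternative. Features with a Benjamini-Hochberg adjusted p under 0.05 over the 3722 features tested were called. The fit was tested on simulated data. Standard errors were the log2 fold change over the root of F. Strand ratios used a prior count of 0.5 and exact permutation in scipy 1.17.1. Named were the members and, of the 16 called features of the smooth muscle lists, the 8 with the smallest p in CRC against sham, besides others marked as such. Members and lists were chosen with earlier results of these data known. Alternatives were other scalings, filters, thresholds and tests, a replicate block, and each replicate left out in turn.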

Additional observations from a re-analysis of the deposited data

How the results depend on the processing

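The number of members called between CRC and sham was 3 under each other scaling, filter and tool that was run and with the replicate block, 3 to 4 with any 1 replicate left out, and 1 when a fold change of over 1.5 was required, where Myh11 (edgeR adjusted p = 0.0519) and Gm11946 (0.106) were lost. Between CRC and injury it was 1, but 2 in a fit of those groups alone, and 1 to 2 with a replicate left out. Between injury and sham it was 0, but 1 with DESeq2, and 0 to 1 with a replicate left out, where the 1 was Myh11 without sham replicate 1. Over all settings the log2 fold change in CRC against sham lay between -1.32 and -0.99 for Gm48529, -0.95 and -0.58 for Gm11946, -1.71 and -0.94 for Myh11 and -1.29 and -0.84 for Tagln; the values nearest 0 for Gm48529, Gm11946 and Tagln came with library sizes that include reads outside features. That scaling moved the median of all features by 0.29, and relative to this median the members stood at -1.31 (Gm48529), -1.26 (Myh11), -1.16 (Tagln), -0.90 (Gm11946) and 0.11 (Lmod1).

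Own features of the smooth muscle lists called were 4 in CRC against sham and 2 in CRC against injury with the fold of over 1.5, 2 to 4 in CRC against injury and 0 to 2 in injury against sham with a replicate left out (2 without injury replicate 1 or CRC replicate 2, and 2 without sham replicate 1). Opposite features called were 1 in injury against sham with DESeq2. In CRC against injury they were 12 with those groups alone and 2 with the fold of over 1.5. Over all features, calls in CRC against injury moved from 481 to 708 with those groups alone and to 180 with that fold. In CRC against sham they moved from 746 to 301 with that fold. Without injury replicate 1 or CRC replicate 2, 330 and 338 of all features were called in CRC against injury. The cause of these shifts was not tested. The strand ratios between CRC and sham ran from -0.38 to 0.043 (Gm48529 to Tagln) and from -1.26 to 0.0015 (Gm11946 to Smtn) with a replicate left out, changing sign without sham replicate 1 or CRC replicate 2 and without sham replicate 2. The labels link samples of different groups by a replicate number alone. Correlations of same-numbered deviations lay between -0.10 and 0.08, and whether same-numbered samples share a batch was not tested. With the replicate block 3, 1 and 0 members were called in CRC against sham, CRC against injury and injury against sham. Depth limits Smtn, Tagln and Lmod1, at 0 to 26 counts per library.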
